A study of Caenorhabditis elegans with 2 samples.

Results

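In the nematode Caenorhabditis elegans, binding of the posterior Hox protein PHP-3 was described at 6 regulators, tlp-1, psa-3, mab-3, dmd-3, egl-38 and lin-48, genes of the tail tip, the T cell lineage and the rectal epithelium. A peak was counted for a gene when its summit lay in the gene body or in the sequence upstream of it as far as the next protein-coding gene, a stretch called the gene's territory below (Ensembl WBcel235). The members are 6 of 19973 protein-coding genes. Their territories held 4 of the 3559 peaks in the larger of the authors' 2 series-wide thresholded lists. The lowest score in these lists, 830, is called the score limit below. The genes were chosen from these same peak lists, so their counts and signal values are a description and carry no test.

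Binding was measured by chromatin immunoprecipitation and sequencing (ChIP-seq) with an anti-GFP antibody in whole larvae of strain RW12213, whose php-3 gene carried a TY1, EGFP and 3xFLAG tag inserted by CRISPR (st12213[php-3::TY1::EGFP::3xFLAG] III). Worms were synchronised by starvation at the L1 stage after bleaching and taken as L4 larvae at 48 hours; sex was not recorded. There were 2 biological replicates of this 1 group and no other condition, no untagged or input sample was analysed here, and read depth is unknown. As whole animals were used, a peak does not say in which cells PHP-3 was bound, and occupancy per cell cannot be told apart from the number of cells with PHP-3.

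Hox proteins are homeodomain transcription factors that give cells their identity along the body axis, often together with PBC and Meis class cofactors. In the worm's tail, nob-1 and php-3 are neighbouring posterior Hox genes needed for the posterior end to form. The T cell is a posterior hypodermal blast cell whose division is polarised by the Wnt ligand LIN-44 and its receptor LIN-17, and psa-3 is a known target there of the Hox protein NOB-1 with the cofactor CEH-20. The tail tip is a small group of hypodermal cells that is reshaped in males by the DM-domain factors DMD-3 and MAB-3. The rectal epithelium is a set of hindgut cells in which the Pax factor EGL-38 is known to activate lin-48.

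Of the 6 genes, tlp-1 had 2 peaks past the score limit, psa-3 had 1, mab-3 had 1, and dmd-3, egl-38 and lin-48 had 0. That is 3 of 6 genes, against 15.3% of all protein-coding genes by the same rule. The territories were mostly long: 41.5 kb at psa-3, 20.2 kb at dmd-3, 14.7 kb at tlp-1, 13.4 kb at mab-3 and 7.81 kb at lin-48, with 4.22 kb at egl-38, whereas the median gene had 3.54 kb. In the 4994 genes with the longest territories the share with a peak was 28.3%. The upstream sequences of psa-3, mab-3 and dmd-3 are shared with the divergent genes svh-5, cutl-2 and Y43F8C.11, so that a peak there counts for both genes. Having at least 2 peaks, as tlp-1 did, was found in 3.97% of all genes, a share that was not computed for the longest territories alone. The same 3 genes had peaks in the conservative list, where the background was 15.3%, in replicate 1's own list (8.55% of genes) and in replicate 2's own list (9.62%).

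**Figure D1:**
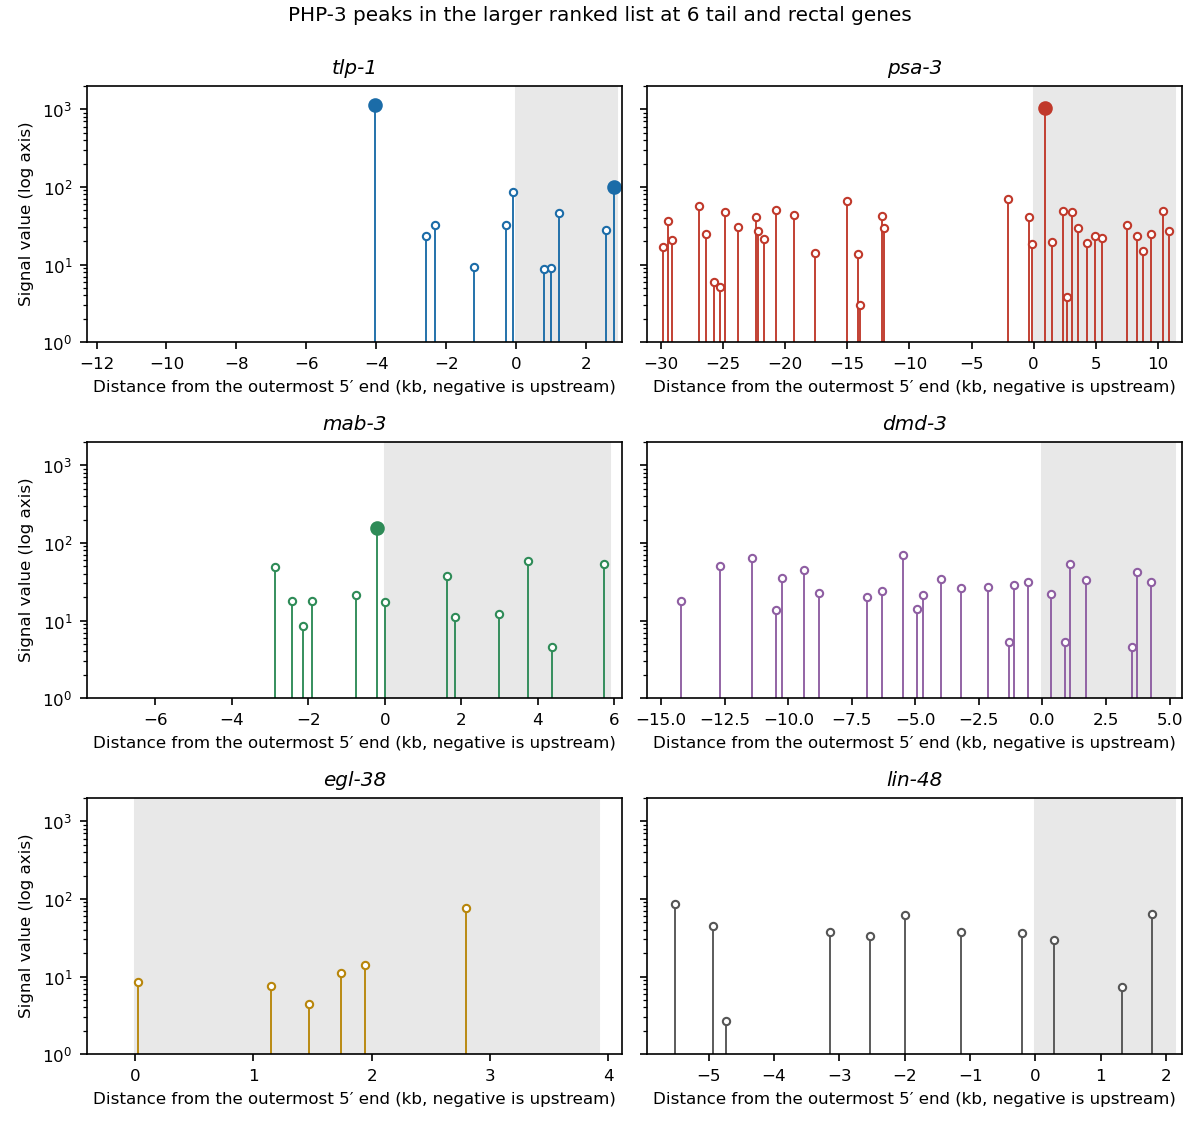
Signal value (log axis) of every peak of the larger ranked list against its distance from the outermost 5′ end of each gene; grey marks the gene body, filled circles peaks past the score limit and open circles peaks below it. The peaks of tlp-1 at 1143 and psa-3 at 1053 stand far above the others, and dmd-3, egl-38 and lin-48 have open circles only.

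The windows of 101 bp around the 4 summits, and for the tlp-1 gene end, which is UTR sequence, 30 bases from the summit on, are shown because these are the only stretches of the 6 genes that passed the limit. They are read on the plus strand of the RefSeq genome of assembly WBcel235 (ce11 coordinates), and capitals mark matches on either strand to the word TTTACG, to its relative TTTATG or to the word TTTATT. These 3 words were searched because posterior Hox proteins are known to bind sites that begin with TTTA. They are among 7 motifs searched, all chosen with earlier results of these data known. Their matches are therefore a description and carry no test.
tlp-1 upstream, chrIV:13708068-13708168: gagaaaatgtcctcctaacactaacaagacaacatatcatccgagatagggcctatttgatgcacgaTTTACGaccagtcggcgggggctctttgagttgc
tlp-1 gene end, chrIV:13701298-13701327: gttatggggcgtCGTAAAgcaaccgagatg
psa-3 intron, chrX:15408768-15408868: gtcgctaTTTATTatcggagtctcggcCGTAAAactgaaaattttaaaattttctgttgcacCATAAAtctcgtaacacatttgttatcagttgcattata
mab-3 upstream, chrII:9731880-9731980: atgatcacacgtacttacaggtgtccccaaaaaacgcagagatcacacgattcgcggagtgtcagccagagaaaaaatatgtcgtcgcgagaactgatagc

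The word TTTACG stood in 3 of these 4 windows, both of tlp-1 and that of psa-3, and it was in 6.35% of all 3559 summit windows and 4.02% of windows centred 400 bp to each side. In tlp-1 upstream it lay 17 to 22 bp to the right of the summit, on the plus strand. At the gene end of tlp-1 and in psa-3 it was on the minus strand, read as CGTAAA on the strand printed, 12 to 17 bp to the right of the summit at tlp-1 and 18 to 23 bp to the left at psa-3. The psa-3 window also held TTTATG, as CATAAA, 12 to 17 bp to the right, and TTTATT 38 to 43 bp to the left. With 3 matches to the 3 words, psa-3 was among the 2.19% of all summit windows with as many. The window of mab-3 held none of the 3.

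Matches to one or other of the 3 TTTA words were common, in 34.6% of all summit windows against 33.2% of those beside them, so that a match at a single site says little. TTTATG alone was in 13.5% against 9.41%, and TTTATT in 20.01% against 23.3%. The word GATAA, the core of GATA factor sites, was in the psa-3 window at 2 places on the minus strand, as TTATC, one of them sharing bases with the TTTATT match; it was in 42.2% of all summit windows and 22.1% of those beside them. TGATNNAT, a form bound by Hox proteins with PBC cofactors, was in 0 of the 4 windows (9.16% of all, 7.71% beside). TGACAG, bound by Meis-class factors (5.73% and 3.01%), and TAATTA, a common homeodomain core (3.01% and 5.23%), were also in 0 of 4. The G and C content was 47.5% in tlp-1 upstream and in mab-3, 42.6% at the gene end of tlp-1 and 32.7% in psa-3, where the median of all windows was 41.6% with quartiles of 34.7% and 49.5%.

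The gene tlp-1 (WBGene00006580; IV, 13701208 to 13704082, minus strand) encodes a zinc-finger protein needed for the shape of the tail tip and for cell fates in the T lineage. Its stronger peak (IV, 13707735 to 13708358) had a signal value of 1143, the highest of the larger thresholded list and 9.51 times that list's median of 120.2. The larger ranked list held higher values, up to 3411, at peaks that the thresholded list left out. Signal values are given as the authors deposited them, in a scale that is not stated. Replicate 1 gave 482 and replicate 2 gave 580, a mean of 531 ± 69.2 (SD, n = 2). Both replicates placed it first in their own thresholded lists. In their own ranked lists it had rank 3 in replicate 1 and rank 2 in replicate 2. Replicate 2 was 1.203 times replicate 1, where the median ratio over 3493 peaks was 1.14 (quartiles 0.921 and 1.402). The summit lay 4036 bp upstream of the gene's only annotated 5′ end, and the next 5′ end, that of C47A4.1, lay 8261 bp from it. The summits of the replicates were 6 bp apart. At 624 bp the peak was wide: 3 peaks of the list, itself included, were as wide or wider, and most had a single width of 324 bp.

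The other peak of tlp-1 (IV, 13701136 to 13701459) was weaker, at 98.6, below the median of the list. Its summit lay in the exon that holds the 3′ UTR, 2784 bp from the 5′ end of tlp-1 and 2595 bp from that of the next gene, T23G4.127, so that by nearest 5′ end it would belong to the neighbour. Replicate 1 gave 40.2 with a score of 60 and replicate 2 gave 65.6 with a score of 832, a mean of 52.9 ± 18.0 (SD, n = 2). Replicate 1's own thresholded list did not hold it, and replicate 2's did, just inside the limit of 830. In the series-wide lists its score was 864 in the larger and 1000 in the conservative list. Right at the 5′ end of tlp-1, 82 bp upstream, a peak of 85.9 had scores of 519 and 342 in the larger and conservative ranked lists and so stayed below the limit, with 25.8 in replicate 1 and 61.1 in replicate 2. The stronger peak thus held 75.3% of the summed signal of the 11 ranked peaks of tlp-1 and was 11.6 times the next.

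The gene psa-3 (WBGene00009560; X, 15407931 to 15419298, plus strand) encodes a Meis-class homeodomain protein that acts in the asymmetric division of the T cell. Its peak (X, 15408610 to 15409000) had a signal value of 1053, the next in the larger thresholded list after tlp-1 and 8.76 times the median. The third of that list was 935. Replicate 1 gave 475 and replicate 2 gave 556, a mean of 515 ± 57.6 (SD, n = 2), second in each replicate's own thresholded list. In the own ranked lists it had rank 4 in replicate 1 and rank 3 in replicate 2. In each replicate tlp-1 was above psa-3, by a small margin, and with 2 replicates their order was not tested. The summits of the replicates were 23 bp apart, and 6 peaks of the list were at least as wide as its 391 bp.

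The place of the psa-3 summit depends on the transcript. It lay 887 bp downstream of the 5′ end of transcript F39D8.2a.1 and 311 bp downstream of that of F39D8.2b.1, in an intron of both. It lay 237 bp upstream of the 5′ end of F39D8.2c.1 and 8732 bp upstream of that of F39D8.2d.1. The peak is thus intronic for the longer forms and promoter-proximal for a shorter one, and the closest annotated start was that of F39D8.2c.1. The gene pqn-36 lies inside psa-3 on the other strand, with its 5′ end 6675 bp from the summit. Of the other 37 ranked peaks of psa-3, 0 passed the limit. The highest of them, 70.3 (replicate 1, 37.9; replicate 2, 36.6), lay 2034 bp upstream with scores of 627 and 676, the closest to the limit from below among all peaks of the 6 genes in the larger list. The intronic peak was 15.0 times this one and held 48.7% of the summed signal of the territory.

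**Figure D2:**
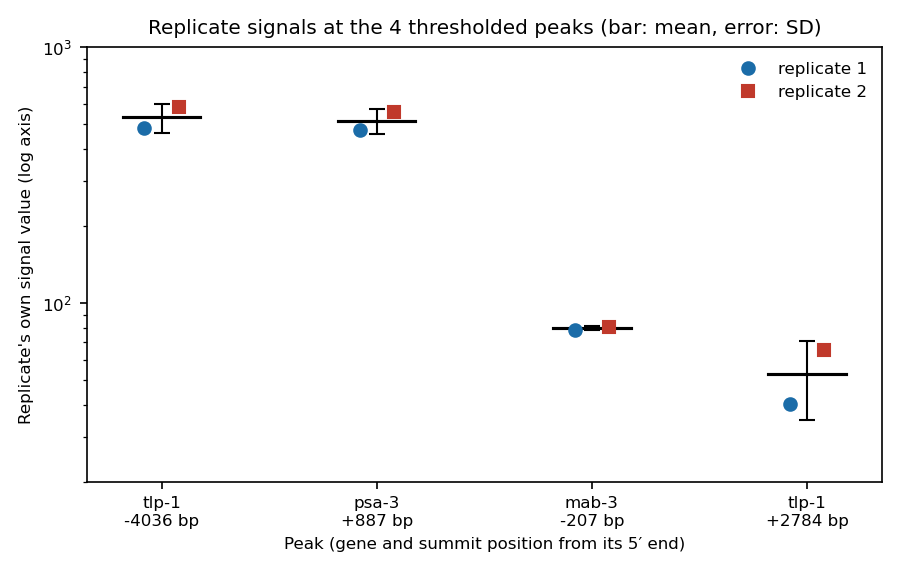
Signal value in each replicate's own ranked list (log axis) at the 4 peaks past the score limit, labelled by gene and summit position from its 5′ end, with the mean (bar) and SD (error bar, n = 2). The replicates' values at tlp-1 upstream and psa-3 lie between 475 and 580 and overlap, and all exceed those of the other peaks, of 40.2 to 80.5.

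The gene mab-3 (WBGene00003100; II, 9732137 to 9738035, plus strand) encodes a DM-domain transcription factor of male development, which acts with dmd-3 in the tail tip and represses yolk genes in the male intestine. Its peak (II, 9731768 to 9732091) had a signal value of 156, place 1057 in the larger list, 1.30 times the median. Replicate 1 gave 78.5 and replicate 2 gave 80.5, a mean of 79.5 ± 1.38 (SD, n = 2), the closest pair of values among the 4 peaks. The summit lay 207 bp upstream of the outermost 5′ end, that of Y53C12B.5a.1, and 3081 bp upstream of the next, that of Y53C12B.5b.1. Of the 4 summits it was the closest to an outermost 5′ end. Replicate 1's own list also held an overlapping peak of 7.81 with the same score of 914. Over the 3062 genes with a thresholded peak, the highest peak of each had a median of 135, with quartiles of 102 and 188, so that mab-3 stood inside the common range and tlp-1 and psa-3 above the 95th percentile of 350.2.

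**Figure D3:**
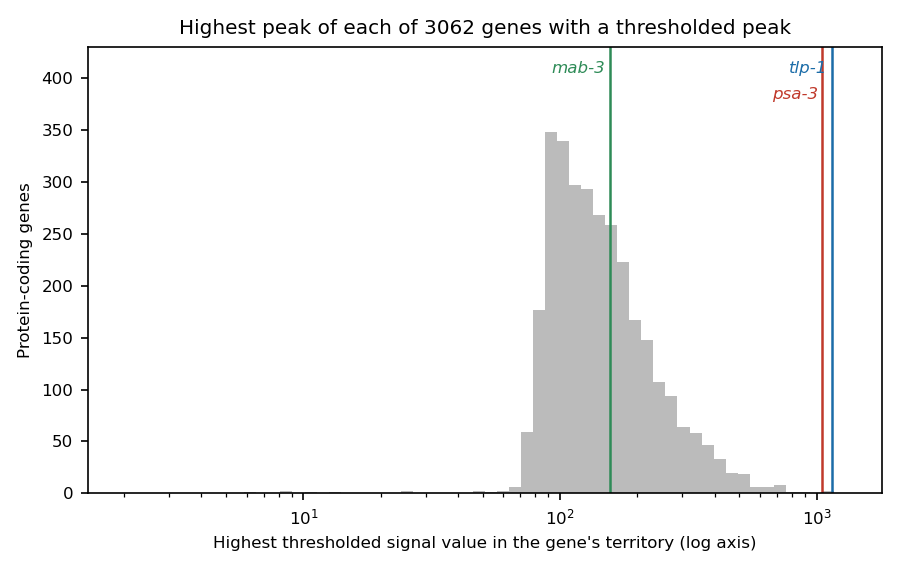
Number of protein-coding genes by the signal value of their highest thresholded peak (log axis), for the 3062 genes with one; lines mark the 3 genes described here. The line of mab-3 at 156 falls in the body of the distribution, and those of psa-3 at 1053 and tlp-1 at 1143 lie at its upper end.

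The other 3 genes had ranked peaks but none past the limit. The gene dmd-3 (WBGene00012832; V, 19650025 to 19655251, minus strand) encodes the DM-domain factor that drives male tail tip morphogenesis. It had 25 ranked peaks, of which the strongest reached 70.7, 5494 bp upstream, with scores of 433 and 177; replicate 1 gave 20.8 there and replicate 2 gave 43.2. The next, 64.0 at 11432 bp upstream, had a peak in replicate 2 only (35.5) and lay nearer the 5′ end of Y43F8C.11. The strongest was 1.105 times the next, so that no single peak led at dmd-3, and the highest score there was 463.

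The gene egl-38 (WBGene00001204; IV, 10106599 to 10110517, minus strand) encodes a Pax-family factor of the hindgut and the egg-laying system. It had 6 ranked peaks. One of them, in an intron 2801 bp downstream of the 5′ end, reached 76.6, while the others were between 4.38 and 14.2. Replicate 2 gave 47.9 there with a score of 553, and replicate 1 had no overlapping ranked peak. Its score was 226 in the larger and 595 in the conservative ranked list, below the limit in both. The window around this summit held TTTATG on each strand, 35 to 40 bp to the left and 42 to 47 bp to the right.

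The gene lin-48 (WBGene00003033; III, 3745438 to 3747572, plus strand) encodes an Ovo-family zinc-finger protein of hindgut cells. It had 11 ranked peaks, of which the strongest reached 85.2, at 5517 bp upstream, with 45.2 in replicate 1 and 44.3 in replicate 2. That summit lay 156 bp beyond the end of the upstream gene F34D10.4 and nearer its 5′ end than that of lin-48, at 3319 bp. Its scores were 76 and 72. The value of replicate 1 came from an overlapping peak with its summit at -5645 bp, beside -5517 bp in the larger list. Closer to lin-48, a peak 1999 bp upstream reached 62.2 (27.6 in replicate 1 and 32.2 in replicate 2; scores 205 and 409), and a peak 199 bp upstream reached 36.1 with scores of 129 and 108. The TTTA words were not in the window of the strongest summit of lin-48, and that of dmd-3 held 1 TTTATG.

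By their highest ranked peak the 6 genes fell in 3 steps. At tlp-1 and psa-3 it was matched or exceeded in 3 and 4 of 19973 genes, these genes included. At mab-3 it was matched or exceeded in 6.07% of genes. At lin-48 (16.6%), egl-38 (20.4%) and dmd-3 (24.1%) it was higher than the median gene's 47.1 but below the limit in score. These shares and the median are over all 19973 genes, of which 15405 had a ranked peak, and the rest counted as lower. Longer territories can hold more peaks, and no share among long ones was computed here. By territory length dmd-3 stood at percentile 96.9, lin-48 at 79.5 and egl-38 at 57.8. In the replicates' own ranked lists lin-48 had a highest value of 45.2 in replicate 1 and 56.5 in replicate 2, dmd-3 40.02 and 43.2, and egl-38 28.3 and 47.9. In each of the 3 genes the replicates' highest values came from different peaks, so that they give no order among these genes.

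In all, the 6 territories held 104 peaks of the larger ranked list, of which 4 passed the limit. The score is scaled by the authors from the irreproducible discovery rate (IDR), a measure of how far paired lists disagree, and 830 is the lowest score in each thresholded list. The 100 below it had a median signal of 27.1 (range 2.63 to 85.9) and scores of 38 to 627, of which 52 were at the lowest score of 38. Of the 100, 27 overlapped a ranked peak in both replicates, 43 in 1 replicate and 30 in neither. The members just inside and just outside the limit were the gene-end peak of tlp-1, at 98.6 and 864, and the upstream peak of psa-3, at 70.3 and 627.

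**Figure D4:**
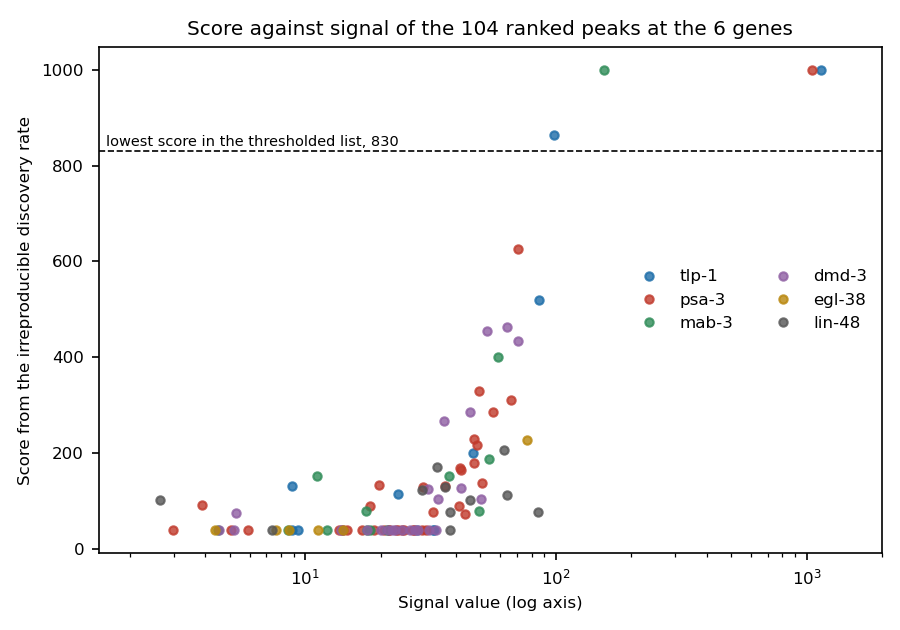
Score against signal value (log axis) of the 104 peaks of the larger ranked list at the 6 genes, coloured by gene; the dashed line is the lowest score of the thresholded list, 830. The 4 points above the line belong to tlp-1, psa-3 and mab-3, and the point of lin-48 at 85.2 lies low for its signal, at a score of 76.

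A wider list held 36 genes, set under the names of the same tissues and of the DM-domain family. Of these, 35 were found in the annotation by name. Of these 35, 12 had a peak (34.3%), where the share was 15.3% of all protein-coding genes and 28.3% of those with the longest territories. The territories of the list were also long, with a median of 9.92 kb, so that its share is read against the second of these and lies near it. Among regulators of T cell polarity and lineage 7 of 12 had a peak. They were the Dishevelled gene mig-5 (signal 351; 169 bp upstream, 161 in replicate 1 and 182 in replicate 2), egl-27, which encodes an MTA-family chromatin protein (5 peaks of 78.8 to 296), the TCF gene pop-1 (135; 1411 bp upstream), the kinase gene lit-1 (114.6 and 77.1), the Wnt secretion gene mig-14 (108), the beta-catenin gene wrm-1 (94.7) and the PBC cofactor gene ceh-20 (8.82 in the larger list, with overlapping ranked peaks of 62.2 in replicate 1 and 47.0 in replicate 2). Several of these summits were nearer another gene: those of mig-14 and wrm-1, both of lit-1, and 3 of the 5 of egl-27, among them its strongest at 296, nearest tbc-6. The peak of mig-5 also counts for cct-1, whose territory had the same highest signal of 351. The ligand gene lin-44, the receptor gene lin-17, sys-1, swsn-4 and swsn-1 had no thresholded peak.

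Among tail tip and DM-domain genes 5 of 13 had a peak: dmd-7 (3 peaks of 131 to 252), dmd-6 (403, nearest irld-18, and 138), tra-1, the zinc-finger gene at the end of the sex determination pathway (126; 2210 bp upstream), dmd-5 (125, in an intron) and dmd-10 (87.6). The genes lep-2, lin-41, nhr-25, eff-1, mab-23, dmd-4, dmd-8 and dmd-9 had none. Among the 10 genes listed under rectal epithelium and hindgut 0 had a peak, beside background shares of 15.3% and 28.3%. The list is small, and its difference from either share was not tested. Its genes were the Hox gene egl-5, the T-box gene mab-9, sem-4, ceh-6, sox-2, pax-2, lin-26, egl-26, ces-2 and vab-7. Whether each of them acts in these tissues was not checked, so the count describes the list and not a tissue. The median territory of these 10 genes was 8.90 kb, against 10.6 kb for the T cell genes and 13.99 kb for the tail tip and DM-domain genes. Their highest ranked peaks had a median of 54.8, against 104.5 for the T cell genes and 87.6 for the tail tip and DM-domain genes. These lists were drawn up with earlier results of the same data known, and the differences between them were not tested.

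The larger ranked list named no peak of any score over long stretches, which limits what can be said of upstream sequence. Neighbouring summits of the larger ranked list were 8 kb or more apart in 1464 places, which together made up 28.8% of the genome, while only 64 gaps were between 5 and 8 kb. Such a stretch covered 53.0% of the territory of tlp-1 (from 4.04 to 11.8 kb upstream), 34.3% of that of mab-3 (from 2.88 to 7.46 kb upstream) and 24.0% of that of psa-3 (from 2.03 to 12.01 kb upstream), and none of dmd-3, egl-38 or lin-48. Inside those stretches of the 3 genes the conservative ranked list and replicate 1's ranked list also held 0 summits, while replicate 2's ranked list held 2 at tlp-1, 1 at psa-3 and 1 at mab-3, all near an edge. Those at tlp-1 (signals 26.03 and 7.43) were 879 and 1123 bp from the edge, that at psa-3 (18.4) was 105 bp from it and that at mab-3 (30.5) was 24 bp from it. Whether these stretches lacked PHP-3 was not tested. Among genes with at least 1 ranked peak in their territory the share with a thresholded peak was 19.9%, and 32.6% in those with the longest territories.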

How the data were processed

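Peaks of EGFP-tagged PHP-3 were measured by ChIP-seq in 2 replicates of 1 group. The authors deposited 8 peak lists on ce11, per the labels: for each replicate 1 ranked and 1 thresholded, and for the series 2 of either kind. No source used here names the aligner or peak caller. The signal value is the one the authors deposited under that name, and its scaling is not stated. The score is the authors' IDR score. The deposited −log10 q value was not used. Depth is unknown, so no interval that depends on it is given. The larger thresholded list (3559 peaks) was the main one, and all its peaks were in the ranked list of 96056.

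A peak belonged to a gene when its summit lay in the territory: the gene body (Ensembl release 115) and the upstream sequence to the nearest edge of the next protein-coding gene on either strand. Replicate values are the highest signal of a ranked peak overlapping by at least 1 bp. Motifs were searched on both strands within 50 bp of a summit in the RefSeq genome; the first codon of all 6 genes read ATG there. No statistical test was run. Territory assignment was checked on simulated data. Named genes were all 6 members and each gene of the wider list. The members, lists and motifs were chosen with earlier results of these data known. Alternatives were other lists, stricter limits, territories and overlaps. Python 3.11.15, numpy 2.4.6, pandas 2.3.3 and matplotlib 3.10.9 were used.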

Additional observations from a re-analysis of the deposited data

How the results depend on the processing

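The count of genes with a peak was 3 or within 1.5 times of it (2 to 4) in all 9 alternatives. It was 2 with the gene body only, and 4 with upstream sequence to the next gene on the same strand, when dmd-3 gained a peak. The count of peaks was 2 with the gene body only, which leaves out tlp-1 upstream and mab-3, and 3 to 5 in the other 8. Peaks in both replicates' own lists were 3 of 4 in the main count, 1 with the gene body only, and 2 to 4 in the other 9 alternatives. The background share of 15.3% was 8.55% to 9.62% without either replicate, 9.19% with signal above the median, 5.94% with the gene body only and 12.5% to 21.7% in the others, among them 19.9% over genes with a ranked peak, an alternative chosen after seeing the data. Within 2 kb upstream, the highest signal of tlp-1 was 98.6 in place of 1143. Matches to the TTTA words in the 4 windows were 5 within 50 bp, 4 within 25 bp and 12 within 100 bp. No paired analysis was possible because there was only 1 group. Read depth is unknown, and no control sample was analysed here.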

Other observations

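The score of a peak did not always follow its signal. The strongest ranked peak of lin-48 had a signal of 85.2, with overlapping peaks of 45.2 and 44.3 in the replicates, and a score of 76. The summit of the replicate 1 peak was at -5645 bp from the 5′ end, beside -5517 bp in the larger list. Of 1898 peaks of the larger ranked list with a signal within 10% of 85.2, 30.2% passed the limit, the median score was 727, and 1.53% had a score as low. The intronic peak of egl-38, at 76.6, had scores of 226 and 595 in the 2 series-wide ranked lists, and 8.09% of 2818 peaks of like signal passed the limit in the larger one. For the strongest peak of dmd-3 below the limit, at 70.7, that share was 3.00%.

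The peaks of tlp-1 stood apart from other thresholded peaks on the side of its gene end. The next thresholded summit on that side was 305 kb away, a gap that 5 of 3553 in the list matched or exceeded, this one included. The gap held 219 ranked peaks with signals up to 87.1 and scores up to 777. Over all 3559 peaks the median distance to the nearest other summit was 3.46 kb.

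When upstream sequence was read to the next gene on the same strand, dmd-3 gained a peak of 76.4 (V, 19672401 to 19672724; 41.6 in replicate 1 and 35.8 in replicate 2). Its summit lay 17312 bp upstream of dmd-3, and the nearest 5′ end was that of mrp-7, 2280 bp away.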
